A study of Mus musculus with 12 samples.

Results

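The integrated stress response and the amino acid genes it controls were followed through primary mouse cortical neurons cultured with or without erinacine S, which is made from the mycelium of Hericium erinaceus, the lion's mane mushroom. The set holds 36 of the 51912 genes of the deposited table, taken as every row whose gene name is on a list of ATF4 pathway regulators (11 genes), of serine, one-carbon, proline and cysteine enzymes with asparagine synthetase (10 genes), of amino acid transporters (4 genes) and of cytosolic tRNA synthetases (11 genes). Cortical cells of C57BL/6J embryos at E17.5 were dissociated with trypsin, plated in a medium with serum, moved within hours to a serum-free neuronal medium and then given the compound or its solvent. The 4 groups were DMSO, the solvent control, for 16 h, erinacine S at 1 µg/mL for 16 h, DMSO for 48 h and erinacine S at 1 µg/mL for 48 h, with 3 libraries each. The series describes the libraries within each group as independent repeats, with no word on litters, dishes or days. A p-value here therefore reflects only how far these libraries differ from one another, and part of that may be technical. All groups are mixed primary cultures with no sort, and the cells were harvested in bulk.

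In the integrated stress response, kinases that sense misfolded protein, missing amino acids, double-stranded RNA or lack of heme phosphorylate the translation factor eIF2alpha. General protein synthesis then slows, while the mRNA of the transcription factor ATF4 is translated more. ATF4 pairs with C/EBP proteins and turns on genes that make, import and charge amino acids, together with feedback regulators such as Ppp1r15a and Trib3. RNA levels, which are what these libraries measure, do not show the translation of Atf4 or the phosphorylation of eIF2alpha.

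Expression is given in TPM, a transcript level corrected for gene length with a fixed sum per library. Read depth cannot be recovered from TPM and is unknown here, so precision is judged from replicate libraries alone. The labelled cell type was checked against 11 neuron markers, whose summed level was 4632 to 6574 TPM in every library, while markers of astrocytes, radial glia, oligodendrocyte lineage and microglia were also present. One library stood apart: erinacine S 48 h replicate 1 had a summed level of 252 TPM for the 10 radial glia markers, where the 5 remaining libraries of 48 h had 737 to 812 TPM, 73.0 TPM for the 10 astrocyte markers against 144 to 169.7 TPM, and 1.60 TPM for the 9 microglia markers against 10.4 to 31.5 TPM. For the erinacine S comparisons that use 48 h libraries, counts of the set that passed are given with and without it. Values of some single genes are given both ways too. Counts of markers and of surrounding lists include it. In bulk libraries such as these, fewer cells of a type and less RNA per cell cannot be told apart.

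A DNA element was looked for in the promoters of these genes: the C/EBP-ATF response element, spelled TGATGNAA where N is any base, which ATF4 with a C/EBP partner is known to bind. RefSeq promoter windows of 300 bases (250 before the start site and 50 from it on, build GRCm38.p6) were found for 28 of the 36 genes, and both strands were searched. The element was in the windows of 10 of the 28 genes (35.7%), against 3.97% of all 32851 windows and 4.51% of all 27025 genes in that table. By role, the windows of 3 of 10 regulators, 2 of 8 enzymes, 0 of 3 transporters and 5 of 7 tRNA synthetases held it. The 30 bases around the element are given for 8 of these genes, the 7 whose RNA fell between 16 h and 48 h in DMSO and the classical target Asns, with the element in capitals, each 5′ to 3′ on the strand that spells it.
Trib3: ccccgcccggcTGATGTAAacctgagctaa
Chac1: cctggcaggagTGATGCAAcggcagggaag
Nupr1: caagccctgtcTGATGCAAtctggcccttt
Pycr1: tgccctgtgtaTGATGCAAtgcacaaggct
Asns: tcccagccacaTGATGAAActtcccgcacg
Yars: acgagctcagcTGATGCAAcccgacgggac
Iars: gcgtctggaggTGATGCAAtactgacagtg
Tars: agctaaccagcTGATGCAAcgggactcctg
These stretches lie at chr2:152344028-152344057 on the plus strand (Trib3), chr2:119351038-119351067 on the minus strand (Chac1), chr7:126625562-126625591 on the plus strand (Nupr1), chr11:120643833-120643862 on the minus strand (Pycr1), chr6:7693214-7693243 on the minus strand (Asns), chr4:129189895-129189924 on the plus strand (Yars), chr13:49682126-49682155 on the minus strand (Iars) and chr15:11399655-11399684 on the plus strand (Tars). The elements of Chac1, Nupr1, Pycr1 and Asns begin 193, 110, 103 and 23 bases before the start site, and that of Tars begins 15 bases before it. Those of Trib3, Yars and Iars begin after the start site, at bases 15, 4 and 8 counted from it. Of all 11 matches in the members, 7 were spelled TGATGCAA, 3 TGATGAAA and 1 TGATGTAA, and the remaining matches were in Aars, with 2, and Gars. A match is a description of the letters, not a bound site, and no binding was measured here.

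The main pattern in the set was a decline with time in culture. Between 16 h and 48 h in DMSO, 24 of the 36 genes fell and 0 rose by limma's moderated test on log2(TPM + 1) with Benjamini-Hochberg adjustment over all 15623 genes tested, at an adjusted p under 0.05. Over all genes tested, 32.7% passed, 16.1% higher and 16.6% lower. With erinacine S, 22 of the 36 fell and 0 rose, beside 30.6% of all genes, 15.1% higher and 15.5% lower. The median log2 difference of the 36 genes was -0.50 in DMSO and -0.48 with erinacine S, beside -0.027 and -0.025 over all genes. Such log2 differences are on the log2(TPM + 1) scale and understate the change of low genes.

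The same direction was seen in the raw values. In DMSO, all 3 libraries of 48 h lay below all 3 of 16 h for 32 of the 36 genes and above them for 1, Wars, beside 26.4% and 24.1% of all genes tested. With erinacine S the groups were apart for 21 genes, all lower at 48 h, beside 23.7% of all genes. Taking both treatments, all 6 libraries of 48 h lay below all 6 of 16 h for 20 of the 36 genes, beside 14.6% of all genes, and these were 9 of 11 regulators, 6 of 10 enzymes, 2 of 4 transporters and 3 of 11 synthetases.

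**Figure D1:**
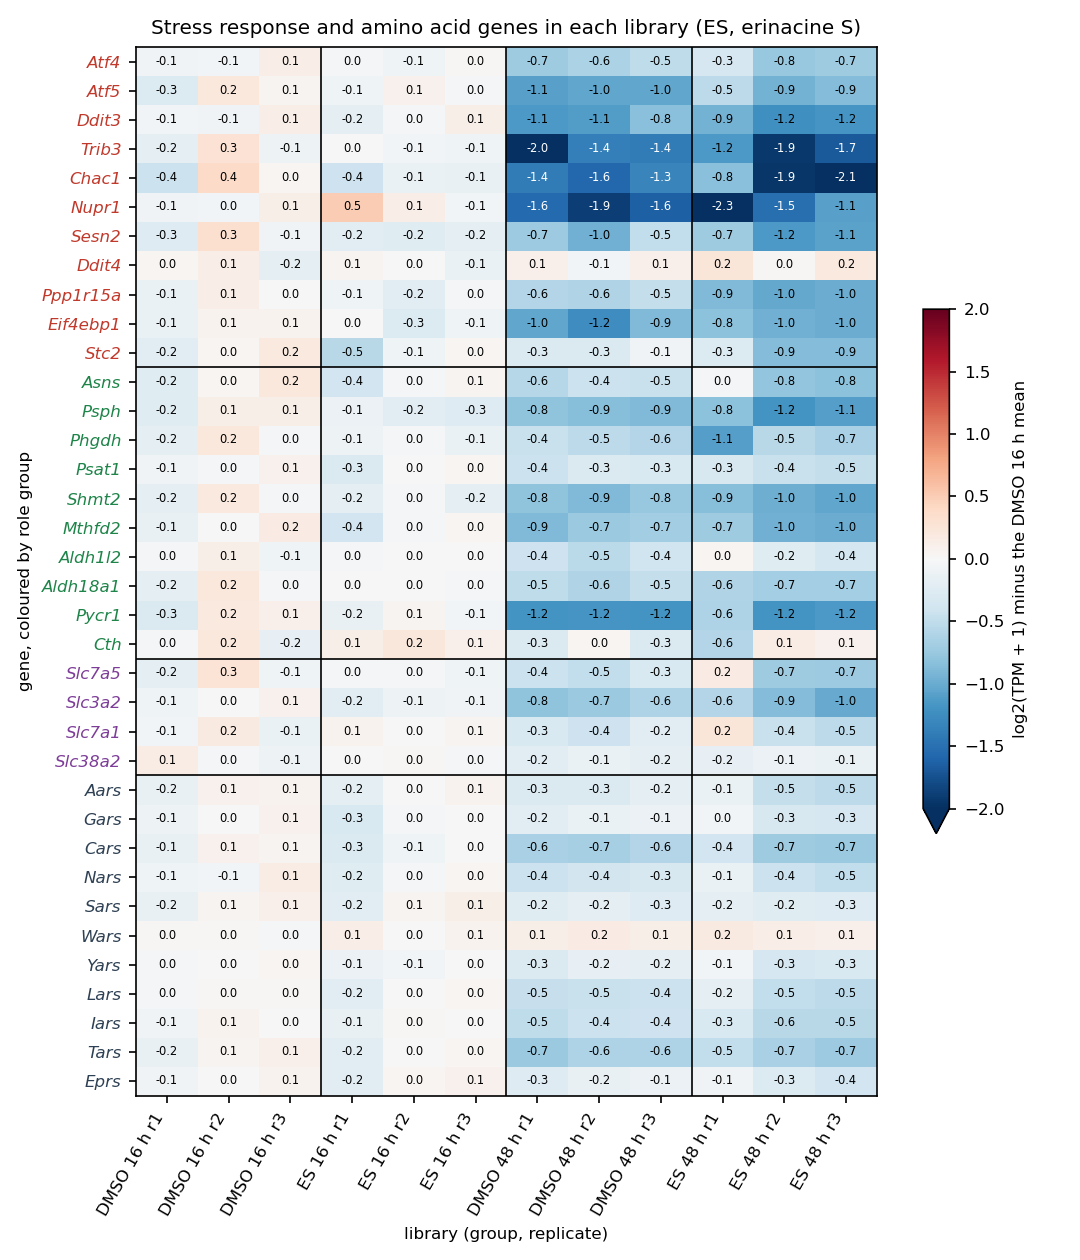
Difference of log2(TPM + 1) from the DMSO 16 h mean for each of the 36 genes (rows, coloured by role) in each of the 12 libraries (columns), with the value printed in each cell; the colours saturate at a difference of 2. The 48 h columns are lower than the 16 h columns for most rows, and erinacine S 48 h replicate 1 is the highest of its group in 32 of 36 rows.

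The regulators and early targets of the pathway fell furthest, 9 of 11 in both treatments, with a median of -1.03 in DMSO and -0.81 with erinacine S. Atf4 (ENSMUSG00000042406, chromosome 15, 80255184 to 80257540, plus strand), the transcription factor at the centre of the response, was at 422, 423 and 483 TPM in the DMSO libraries of 16 h, 430.4, 418 and 449 TPM with erinacine S at 16 h, 270.1, 284 and 310.2 TPM in DMSO at 48 h and 352, 261 and 271 TPM with erinacine S at 48 h. Every library of 48 h was below every library of 16 h, and the highest of the 48 h libraries was erinacine S replicate 1. Atf4 fell by 0.62 ± 0.11 (SE) on the log2 scale in DMSO (adjusted p = 0.00121, limma, n = 3 per group) and by 0.57 ± 0.11 with erinacine S (adjusted p = 0.0023), to 65.1% and 68.1% of its mean level at 16 h.

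Ddit3 (ENSMUSG00000025408, chromosome 10, 127290774 to 127296288, plus strand) encodes CHOP, a transcription factor that is induced through ATF4 and can promote cell death under lasting stress. It was at 68.5, 67.9 and 78.2 TPM in the DMSO libraries of 16 h, 62.3, 69.8 and 77.6 TPM with erinacine S at 16 h, 31.8, 32.5 and 39.4 TPM in DMSO at 48 h and 36.8, 29.97 and 31.1 TPM with erinacine S at 48 h. The times did not overlap in either treatment, and the fall was 1.03 ± 0.11 in DMSO (adjusted p = 7.65e-05, limma) and 1.08 ± 0.11 with erinacine S (adjusted p = 7.12e-05). Ddit3 overlaps Mars, a methionyl-tRNA synthetase gene on the opposite strand, and the strand setting of the quantification is not given in the sources used here.

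Trib3 (ENSMUSG00000032715, chromosome 2, 152337422 to 152344032, minus strand), a pseudokinase that is induced by ATF4 and CHOP and feeds back on them, stood at 9.70, 14.00 and 10.4 TPM in the DMSO libraries of 16 h, 11.3, 10.7 and 10.5 TPM with erinacine S at 16 h, 2.00, 3.74 and 3.62 TPM in DMSO at 48 h and 4.50, 2.21 and 2.81 TPM with erinacine S at 48 h. Even the highest 48 h value, 4.50 TPM in erinacine S replicate 1, was well below the lowest 16 h value. The fall in Trib3 was 1.60 ± 0.22 in DMSO (adjusted p = 0.000329, limma) and 1.54 ± 0.22 with erinacine S (adjusted p = 0.000478).

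Chac1 (ENSMUSG00000027313, chromosome 2, 119351229 to 119354381, plus strand), an enzyme that degrades glutathione and is a target of the ATF4 branch, was measured at 40.3, 72.2 and 56.7 TPM in the DMSO libraries of 16 h, 41.04, 50.2 and 49.5 TPM with erinacine S at 16 h, 20.2, 17.9 and 21.4 TPM in DMSO at 48 h and 30.2, 13.5 and 12.2 TPM with erinacine S at 48 h. No library of 48 h reached a library of 16 h, but the groups were wide, and erinacine S 48 h replicate 1 was far above both fellow libraries. Chac1 fell by 1.43 ± 0.28 in DMSO (adjusted p = 0.00272, limma) and by 1.40 ± 0.28 with erinacine S (adjusted p = 0.00347). Without that library the erinacine S value was -1.79 ± 0.19 (adjusted p = 0.000131).

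Nupr1, a small stress-induced chromatin protein, had the largest fall of the set in both treatments, 1.69 ± 0.25 in DMSO and 1.82 ± 0.25 with erinacine S on the log2 scale (adjusted p = 0.00049 and 0.000364, limma). Without erinacine S 48 h replicate 1 the erinacine S value of Nupr1 was -1.50, beside -1.79 for Chac1. Its level was low, 1.29 to 14.7 TPM over the 12 libraries, and the mean went from 9.98 ± 0.806 (SD) to 2.41 ± 0.401 TPM in DMSO. Eif4ebp1 (ENSMUSG00000031490, chromosome 8, 27260329 to 27276674, plus strand), which encodes an inhibitor of cap-dependent translation that mTORC1 switches off, was at 17.99, 20.8 and 20.9 TPM in the DMSO libraries of 16 h, 19.97, 16.2 and 18.7 TPM with erinacine S at 16 h, 9.12, 7.81 and 10.3 TPM in DMSO at 48 h and 10.8, 9.75 and 9.45 TPM with erinacine S at 48 h. Eif4ebp1 was lower in every library of 48 h and fell by 1.06 ± 0.11 in DMSO (adjusted p = 8.42e-05, limma) and by 0.81 ± 0.11 with erinacine S (adjusted p = 0.000477).

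Ppp1r15a (ENSMUSG00000040435, chromosome 7, 45522916 to 45526268, minus strand) encodes GADD34, the phosphatase subunit that removes the phosphate from eIF2alpha and so ends the response. It was at 48.6, 58.3 and 53.3 TPM in the DMSO libraries of 16 h, 49.99, 45.9 and 52.1 TPM with erinacine S at 16 h, 35.1, 34.6 and 37.8 TPM in DMSO at 48 h and 28.5, 25.7 and 26.4 TPM with erinacine S at 48 h. The 4 groups fell into 3 levels without overlap: both groups of 16 h on top, DMSO 48 h in the middle and erinacine S 48 h at the bottom. Ppp1r15a fell by 0.56 ± 0.081 in DMSO (adjusted p = 0.000478, limma) and by 0.85 ± 0.081 with erinacine S (adjusted p = 4.39e-05).

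Atf5 and Sesn2 also fell in both treatments. Atf5, a stress-induced relative of Atf4, fell by 1.06 in DMSO and 0.76 with erinacine S, over a range of 68.1 to 169 TPM. Atf5 overlaps Nup62 on the opposite strand, a nucleoporin gene with a mean of 93.3 TPM against 112 TPM for Atf5. Sesn2, which restrains mTORC1 when leucine is short, fell by 0.73 and 0.76, over a range of 18.1 to 51.8 TPM. The 2 regulators that did not pass were Ddit4 and Stc2. Ddit4 (REDD1), another inhibitor of mTORC1 and also a target of glucocorticoid and hypoxia signalling, had 143 ± 15.4 TPM at 16 h and 147 ± 8.63 TPM at 48 h in DMSO (mean ± SD, n = 3), a difference of 0.044 ± 0.09 with a 95% interval of -0.15 to 0.24. Stc2, a secreted glycoprotein, differed by -0.21 ± 0.19 in DMSO (adjusted p = 0.415, limma) and -0.47 ± 0.19 with erinacine S (adjusted p = 0.0822). Without erinacine S 48 h replicate 1 the erinacine S value of Stc2 was -0.67 ± 0.17 (adjusted p = 0.0161, limma).

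**Figure D2:**
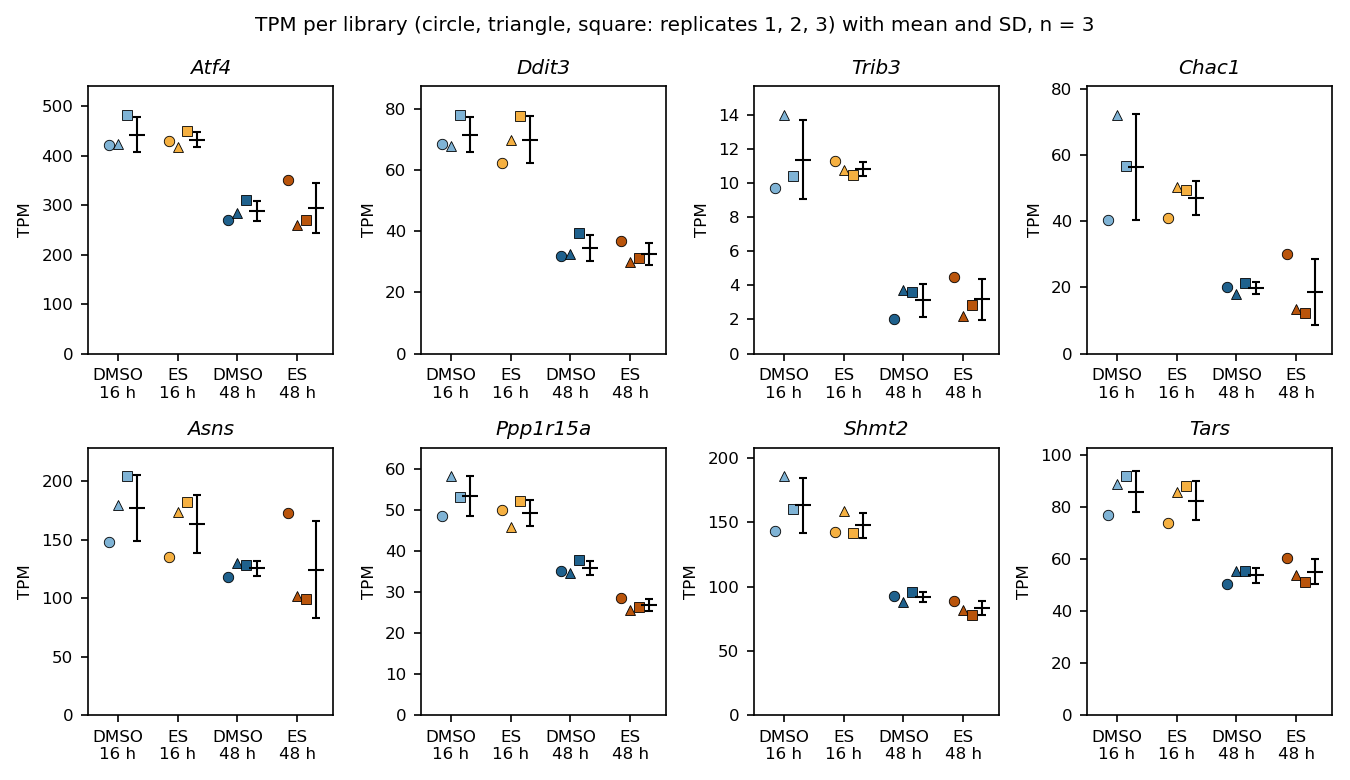
TPM of 8 genes (Atf4, Ddit3, Trib3, Chac1, Asns, Ppp1r15a, Shmt2 and Tars) in each library of the 4 groups, with the mean and SD of the 3 libraries at the right of each group; circles, triangles and squares are replicates 1, 2 and 3. The 48 h groups lie below the 16 h groups in all panels but that of Asns, where erinacine S 48 h replicate 1, at 172 TPM, lies among the 16 h libraries.

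Of the enzymes, 8 of 10 fell in DMSO (median -0.52) and 7 of 10 with erinacine S (median -0.66). The serine pathway makes serine from a glycolytic intermediate through Phgdh, Psat1 and Psph, and all 3 genes fell in both treatments. Psph, the last step, fell by 0.85 in DMSO and 0.84 with erinacine S on the log2 scale, Phgdh, the first step, by 0.52 and 0.68, and Psat1 by 0.34 and 0.34. Psat1 did not pass without DMSO 48 h replicate 1 in DMSO (-0.30, adjusted p = 0.0588, limma), nor with erinacine S without its 16 h replicate 2 (-0.29, adjusted p = 0.0637) or replicate 3 (-0.27, adjusted p = 0.0626). In erinacine S 48 h replicate 1 Phgdh was the lowest of the 48 h libraries at 29.8 TPM, with 40.8 to 47.4 TPM elsewhere. Of the 36 genes, 3 were lowest in that library and 22 were highest. Phgdh is strongly expressed in radial glia and astrocytes, and any part of the low glial marker sums there in its value was not tested. Psph overlaps Cct6a on the opposite strand, whose mean level was 587 TPM.

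Mitochondrial one-carbon enzymes, which pass the carbon of serine to folate, fell as well. Shmt2 (ENSMUSG00000025403, chromosome 10, 127517123 to 127522444, minus strand), which splits serine into glycine and a one-carbon unit, was at 143, 186 and 160.4 TPM in the DMSO libraries of 16 h, 143, 158 and 141 TPM with erinacine S at 16 h, 92.96, 87.9 and 95.4 TPM in DMSO at 48 h and 89.1, 82.1 and 78.1 TPM with erinacine S at 48 h. The lowest library of 16 h was well above the highest of 48 h. Shmt2 fell by 0.81 ± 0.091 in DMSO (adjusted p = 9.69e-05, limma) and by 0.82 ± 0.091 with erinacine S (adjusted p = 0.000105). Mthfd2, the next step in the mitochondrial folate path, fell by 0.77 and 0.76. Aldh1l2, which releases the one-carbon unit as carbon dioxide, fell in DMSO by 0.45 (adjusted p = 0.00411, limma) and differed by -0.17 ± 0.095 with erinacine S (adjusted p = 0.197). The difference between those Aldh1l2 values, tested as an interaction, was 0.28 ± 0.13 (adjusted p = 1). Without erinacine S 48 h replicate 1, Aldh1l2 also fell with erinacine S, by 0.28 ± 0.078 (adjusted p = 0.0224, limma).

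The proline branch showed the same direction. Pycr1 (ENSMUSG00000025140, chromosome 11, 120635712 to 120643769, minus strand), the last enzyme of proline synthesis, was at 70.6, 98.8 and 92.4 TPM in the DMSO libraries of 16 h, 77.6, 90.2 and 83.1 TPM with erinacine S at 16 h, 37.2, 37.5 and 37.3 TPM in DMSO at 48 h and 56.05, 37.02 and 38.3 TPM with erinacine S at 48 h. The DMSO 48 h libraries were nearly equal, all libraries of 48 h were below those of 16 h, and erinacine S replicate 1 was again the highest of them. Pycr1 fell by 1.19 ± 0.15 in DMSO (adjusted p = 0.000198, limma) and by 0.94 ± 0.15 with erinacine S (adjusted p = 0.000966). Aldh18a1 (ENSMUSG00000025007, chromosome 19, 40550257 to 40588463, minus strand), the first enzyme of the branch, was at 113, 148 and 126 TPM in the DMSO libraries of 16 h, 127, 129 and 126 TPM with erinacine S at 16 h, 89.6, 84.4 and 91.7 TPM in DMSO at 48 h and 84.5, 79.7 and 79.5 TPM with erinacine S at 48 h. Its times did not overlap, and it fell by 0.53 ± 0.084 in DMSO (adjusted p = 0.000807, limma) and by 0.64 ± 0.084 with erinacine S (adjusted p = 0.000296).

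Asns (ENSMUSG00000029752, chromosome 6, 7675169 to 7693254, minus strand), asparagine synthetase and the textbook target of ATF4 under amino acid shortage, did not pass in either treatment. It was measured at 148, 180.0 and 204 TPM in the DMSO libraries of 16 h, 135, 173 and 182 TPM with erinacine S at 16 h, 118, 129.6 and 128 TPM in DMSO at 48 h and 172, 102 and 99.01 TPM with erinacine S at 48 h. In DMSO every library of 48 h was below every library of 16 h, while with erinacine S replicate 1 of 48 h lay inside the 16 h range. The difference was -0.48 ± 0.19 in DMSO (adjusted p = 0.0722, limma) and -0.43 ± 0.19 with erinacine S (adjusted p = 0.111). Without erinacine S 48 h replicate 1 the erinacine S value was -0.69 ± 0.14 (adjusted p = 0.00518, limma). The SE in DMSO also draws on that library, since a single fit of all 12 libraries gives each gene a shared spread. Leaving out that library alone was not run for the DMSO comparison, so the missing DMSO call of Asns may depend on it. A fit of only the DMSO libraries, which leaves out every erinacine S library, was run. Its value for Asns is not given here. Cth, which makes cysteine from cystathionine, was near the lower limit of the genes tested at 0.857 to 2.27 TPM and did not pass in either treatment (-0.17 and -0.27).

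Among the transporters, Slc3a2 alone fell, in both treatments. Slc3a2 (ENSMUSG00000010095, chromosome 19, 8706882 to 8723369, minus strand) encodes the heavy chain (4F2hc, CD98) that carries several amino acid exchangers to the membrane. It was at 283, 298 and 318 TPM in the DMSO libraries of 16 h, 259, 279.6 and 285 TPM with erinacine S at 16 h, 171, 178 and 195 TPM in DMSO at 48 h and 199.7, 163 and 148 TPM with erinacine S at 48 h. No 48 h library reached the lowest 16 h library, and erinacine S replicate 1 was the highest of the 48 h libraries. Slc3a2 fell by 0.72 ± 0.099 in DMSO (adjusted p = 0.000334, limma) and by 0.70 ± 0.099 with erinacine S (adjusted p = 0.000477).

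Its partner Slc7a5 (ENSMUSG00000040010, chromosome 8, 121881150 to 121907694, minus strand), the light chain LAT1 that imports leucine and other large neutral amino acids, was at 149.9, 208 and 160.4 TPM in the DMSO libraries of 16 h, 168, 167 and 161 TPM with erinacine S at 16 h, 127, 121 and 138 TPM in DMSO at 48 h and 192, 104 and 103 TPM with erinacine S at 48 h. The DMSO groups did not overlap, but erinacine S 48 h replicate 1 was above all 3 erinacine S libraries of 16 h. The difference of Slc7a5 was -0.41 ± 0.20 in DMSO (adjusted p = 0.13, limma) and -0.37 ± 0.20 with erinacine S (adjusted p = 0.172), and -0.67 ± 0.11 without that library (adjusted p = 0.00215). Slc38a2 (ENSMUSG00000022462, chromosome 15, 96687394 to 96699698, minus strand), the sodium-coupled neutral amino acid carrier SNAT2, varied least of the 4. It was at 125, 109.9 and 106 TPM in the DMSO libraries of 16 h, 113, 115 and 110.0 TPM with erinacine S at 16 h, 97.8, 103 and 100.1 TPM in DMSO at 48 h and 102, 105 and 103 TPM with erinacine S at 48 h, a narrow range in which the 48 h libraries were lower within each treatment, and it differed by -0.18 ± 0.064 in DMSO (adjusted p = 0.0552, limma). Slc7a1, the arginine and lysine carrier CAT1, differed by -0.31 ± 0.16 in DMSO and -0.29 ± 0.16 with erinacine S and did not pass in either. Without erinacine S 48 h replicate 1 the erinacine S value of Slc7a1 was -0.53 ± 0.094 (adjusted p = 0.00251, limma). As for Asns, the DMSO SEs of Slc7a5 and Slc7a1 also draw on that library.

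The tRNA synthetases, which load each amino acid onto its tRNA, had the median nearest 0 of the 4 roles in both treatments: 6 of 11 fell in DMSO (median -0.26) and 5 of 11 with erinacine S (median -0.27). Tars (ENSMUSG00000022241, chromosome 15, 11383663 to 11399658, minus strand), the enzyme for threonine, was at 76.9, 88.9 and 91.97 TPM in the DMSO libraries of 16 h, 73.8, 85.7 and 88.2 TPM with erinacine S at 16 h, 50.6, 55.3 and 55.6 TPM in DMSO at 48 h and 60.6, 54.04 and 51.1 TPM with erinacine S at 48 h. Its times were apart in both treatments, and it fell by 0.66 ± 0.093 in DMSO (adjusted p = 0.000395, limma) and by 0.57 ± 0.093 with erinacine S (adjusted p = 0.0011). Cars (ENSMUSG00000010755, chromosome 7, 143557230 to 143600090, minus strand), for cysteine, was at 135, 158 and 155 TPM in the DMSO libraries of 16 h, 123, 141 and 151 TPM with erinacine S at 16 h, 94.9, 94.1 and 99.5 TPM in DMSO at 48 h and 114, 90.5 and 89.1 TPM with erinacine S at 48 h. Here too no library of 48 h reached those of 16 h. Cars fell by 0.63 ± 0.10 in DMSO (adjusted p = 0.00106, limma) and by 0.50 ± 0.10 with erinacine S (adjusted p = 0.00452).

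Iars (ENSMUSG00000037851, chromosome 13, 49682100 to 49734267, plus strand), for isoleucine, was at 90.1, 99.2 and 95.3 TPM in the DMSO libraries of 16 h, 85.5, 96.9 and 95.5 TPM with erinacine S at 16 h, 66.03, 70.3 and 70.6 TPM in DMSO at 48 h and 76.7, 64.2 and 64.5 TPM with erinacine S at 48 h. The highest library of 48 h, 76.7 TPM in erinacine S replicate 1, was still below the lowest of 16 h, and Iars fell by 0.45 ± 0.08 in DMSO (adjusted p = 0.00142, limma) and by 0.43 ± 0.08 with erinacine S (adjusted p = 0.00219). Lars, for leucine, fell by 0.45 in DMSO and 0.35 with erinacine S. Nars and Yars, for asparagine and tyrosine, fell in DMSO, by 0.37 and 0.21, and differed by -0.27 and -0.17 with erinacine S without passing. For Aars, the alanine enzyme, it was the reverse: it fell by 0.34 with erinacine S (adjusted p = 0.031, limma) and differed by -0.26 in DMSO (adjusted p = 0.0818). Without erinacine S 48 h replicate 1, Nars and Yars also passed with erinacine S, at -0.38 and -0.26 (adjusted p = 0.0135 and 0.0114, limma). Some of these calls were lost when 1 library was left out, with differences of similar size. Nars did not pass in DMSO without 16 h replicate 3 (-0.30, adjusted p = 0.0649, limma) or 48 h replicate 1 (-0.34, adjusted p = 0.0653), and Yars did not pass without any 1 of the 6 DMSO libraries (-0.24 to -0.18, adjusted p = 0.0700 to 0.167). The fall of Lars in DMSO passed without each library. With erinacine S, neither Aars nor Lars passed without replicate 2 or 3 of either time, at -0.32 to -0.27 for Aars (adjusted p = 0.0966 to 0.111) and -0.32 to -0.29 for Lars (adjusted p = 0.0516 to 0.0585).

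Gars, Sars, Eprs and Wars passed in neither treatment. The first 3, which load glycine, serine, and glutamate with proline, differed by -0.16, -0.22 and -0.18 in DMSO. Eprs passed with erinacine S once erinacine S 48 h replicate 1 was left out (-0.29 ± 0.095, adjusted p = 0.0456, limma). Wars, for tryptophan, which interferon also induces, was, with Ddit4, 1 of 2 genes of the set above 0, at 90.97, 91.2 and 86.7 TPM in DMSO at 16 h and 97.4, 101 and 96.8 TPM at 48 h. Its DMSO groups did not overlap, with 48 h higher, and the difference of 0.13 ± 0.055 did not pass (adjusted p = 0.0826, limma).

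The genes that fell were largely shared between treatments, 21 in both, which is 87.5% of those that fell in DMSO and 95.5% of those that fell with erinacine S. Both comparisons come from a single fit, and the same shares over all genes tested were not computed. The overlap is therefore not read as particular to this set. The interaction, which tests whether a gene's change over time differs between treatments, passed for 0 of the 36 genes by limma, beside 0 (0%) of 15623 over all genes. At an unadjusted p under 0.05 it held 1 of the 36, Ppp1r15a (-0.29 ± 0.11, adjusted p = 1, limma), beside 2.77% of all genes.

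**Figure D3:**
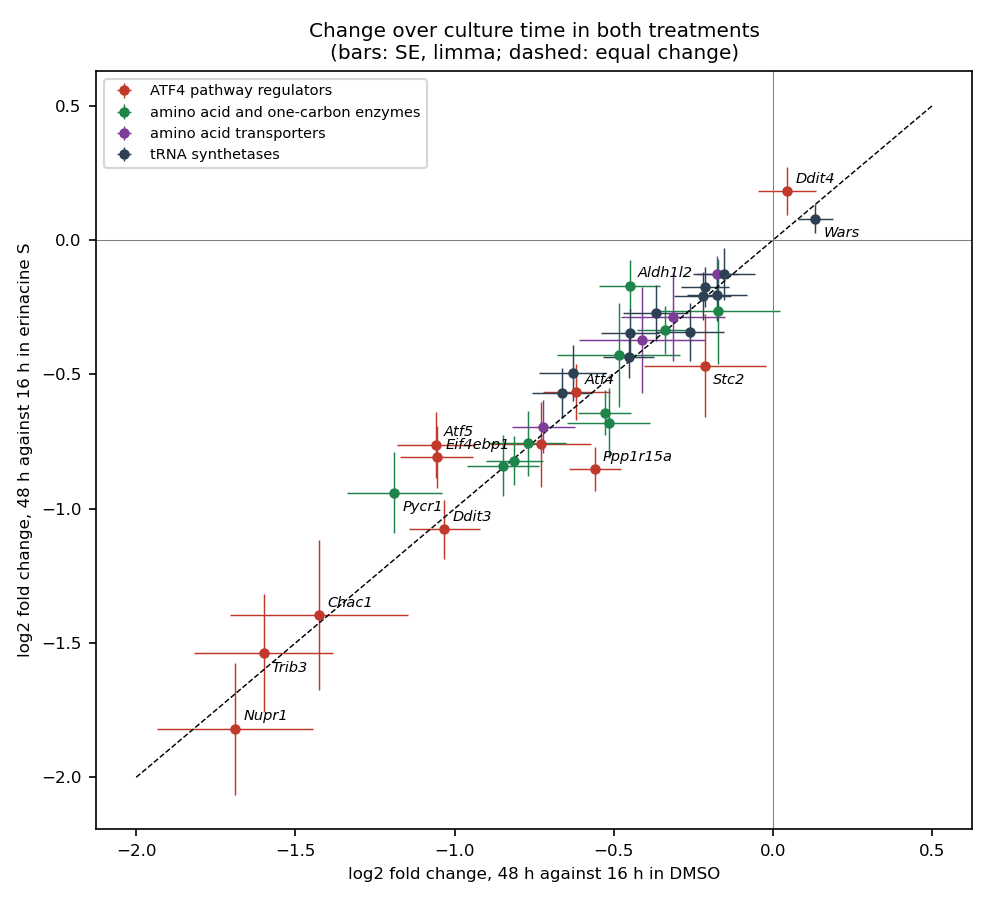
Log2 fold change of 48 h against 16 h in DMSO (horizontal) and with erinacine S (vertical) for the 36 genes, with SE bars from limma, coloured by role; the dashed line marks equal change. Nupr1, Trib3 and Chac1 lie furthest to the lower left, and Ddit4 and Wars lie above 0 on both axes.

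The promoter element was compared with the change over time in DMSO. There, 7 of the 10 genes with the element and 12 of the 18 without it fell, with medians of -0.57 and -0.54. The element was present in Trib3, Chac1 and Nupr1, which fell furthest, and also in Gars, Asns and Aars, which did not pass in DMSO. The remaining 8 genes had no window in the table.

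Some markers of the cell types in the culture also moved with time. In DMSO, 7 of 8 oligodendrocyte lineage markers rose (median 1.40), and the summed level of these markers went from 60.7 to 111 TPM at 16 h to 207 to 240.1 TPM at 48 h. Of the 8 astrocyte markers tested, 1 rose and 0 fell (median 0.61), with a sum over 10 markers of 81.2 to 110.1 TPM at 16 h and 144 to 160 TPM at 48 h. Among neuron markers 5 of 11 rose and 1 fell, among radial glia markers 2 of 10 rose and 3 fell, and of 6 microglia markers 1 fell and 0 rose (median 0.067). Over all genes tested, 16.1% were higher and 16.6% lower in DMSO, and 15.1% and 15.5% with erinacine S. The astrocyte and microglia counts in DMSO were near those shares. With erinacine S, 4 of the 8 oligodendrocyte lineage markers rose (median 0.76), 0 of the 8 astrocyte markers passed (median 0.21), and 6 of 11 neuron markers rose and 1 fell. There 4 of 10 radial glia markers, 2 of 10 markers of dividing cells and 4 of 6 microglia markers (median -1.40) fell, with 0 rising. These counts include erinacine S 48 h replicate 1 and are not given without it. With erinacine S the radial glia sum was 457 to 555 TPM at 16 h. In replicates 1, 2 and 3 of 48 h it was 252, 781 and 812 TPM. In the same order, the astrocyte sum was 82.2 to 103 TPM, then 73.0, 169.7 and 169 TPM. That of dividing cells was 323 to 347 TPM, then 172, 328 and 332 TPM. That of microglia was 28.0 to 46.2 TPM, then 1.60, 10.4 and 13.3 TPM. The part of these marker shifts in the decline was not tested.

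At 16 h erinacine S and DMSO were not told apart on these genes. By limma 0 of the 36 passed, beside 0 (0%) of 15623 over all genes, and at an unadjusted p under 0.05 there were 0 of the 36 and 201 (1.29%) of all genes. The groups overlapped for all 36 genes. Small differences leaned downward, with 32 of the 36 below 0, beside 46.3% of all genes, and a median of -0.052 beside 0.0077. Atf4 differed by -0.032 ± 0.11, with a 95% interval of -0.26 to 0.20. The intervals of the 36 genes had half-widths of 0.12 to 0.61 (median 0.23) and together reached from -0.84 to 0.73 on the log2 scale. For Ddit3 and Asns, the intervals were -0.28 to 0.21 and -0.54 to 0.30, and for Chac1, the most variable, -0.84 to 0.38.

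At 48 h by limma 0 of the 36 passed, beside 0.134% of all genes (21 of 15623). At an unadjusted p under 0.05 there were 4 of the 36, beside 8.96% of all genes. Ppp1r15a was the nearest to the threshold: erinacine S libraries were at 28.5, 25.7 and 26.4 TPM and DMSO libraries at 35.1, 34.6 and 37.8 TPM. All 3 treated libraries were below all 3 controls, and the difference was -0.40 ± 0.081 (adjusted p = 0.112, limma). Stc2 was at 8.98, 5.60 and 5.59 TPM with erinacine S and 8.85, 8.89 and 10.5 TPM in DMSO, where replicate 1 of the treated group lay among the controls (-0.46 ± 0.19, adjusted p = 0.51, limma).

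The other 2 were higher with erinacine S. Atf5 was at 101, 75.6 and 79.4 TPM with the compound and 68.1, 70.3 and 70.2 TPM in DMSO, with a difference of 0.28 ± 0.12 (adjusted p = 0.533, limma). Aldh1l2 was at 49.5, 40.6 and 37.4 TPM and 35.7, 32.8 and 36.2 TPM, with a difference of 0.27 ± 0.095 (adjusted p = 0.416). Neither of these genes overlapped between groups, and replicate 1 was the highest treated library in both. Without erinacine S 48 h replicate 1 both differences stayed above 0 but were smaller. Atf5 was then at 0.15 ± 0.11 (unadjusted p = 0.203, limma) and Aldh1l2 at 0.16 ± 0.078 (unadjusted p = 0.0681, limma). Neither was then under the unadjusted threshold. Non-overlap was no more frequent than in the background: 2 of the 36 genes higher and 1 lower, beside 10.5% and 8.74% of all genes. Of Atf4, Ddit3, Trib3, Chac1 and Asns, all overlapped between groups, with differences of 0.02, -0.079, 0.012, -0.20 and -0.06, and Atf4 and Trib3 changed sign without erinacine S 48 h replicate 1, to -0.11 and -0.21.

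The treated libraries of 48 h disagreed with one another on this set. Replicate 1 was the highest of all 6 libraries of 48 h for 22 of the 36 genes, beside 35.9% of all genes, and for 10 of 11 synthetases. Replicates 2 and 3 were both below every DMSO library for 22 of the 36 genes and above every DMSO library for 4, beside 19.9% and 17.1% of all genes. The median difference of the 36 genes from the DMSO 48 h mean was 0.13, -0.11 and -0.13 in replicates 1, 2 and 3, beside 0.040, 0.0031 and -0.010 over all genes.

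Without replicate 1, the erinacine S group of 48 h has 2 libraries, which limma then takes to vary like the other groups, and 1 of the 36 genes fell, beside 0.685% of all genes (107 lower, with 7 higher). That gene was Ppp1r15a (-0.44 ± 0.087, adjusted p = 0.0485, limma). The median of the 36 genes was then -0.12, beside -0.0033 over all genes. Stc2 was at -0.66 ± 0.17 (adjusted p = 0.167) and Chac1 at -0.59 ± 0.19 (adjusted p = 0.32), neither past the threshold. Replicate 1 also had the lowest glial and microglial marker sums and the lowest mitochondrially encoded share, 5.12% of TPM, with 5.94% to 7.32% elsewhere at 48 h. The marker sums of all 3 treated libraries were below those of DMSO for microglia, 1.60 to 13.3 TPM against 22.8 to 31.5 TPM, and for the oligodendrocyte lineage, 68.9 to 194 TPM against 207 to 240.1 TPM. By limma 1 of 6 microglia markers, C1qc, and 0 of 8 oligodendrocyte lineage markers fell at 48 h with erinacine S. The part of any of these in the values of the 36 genes was not tested.

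**Figure D4:**
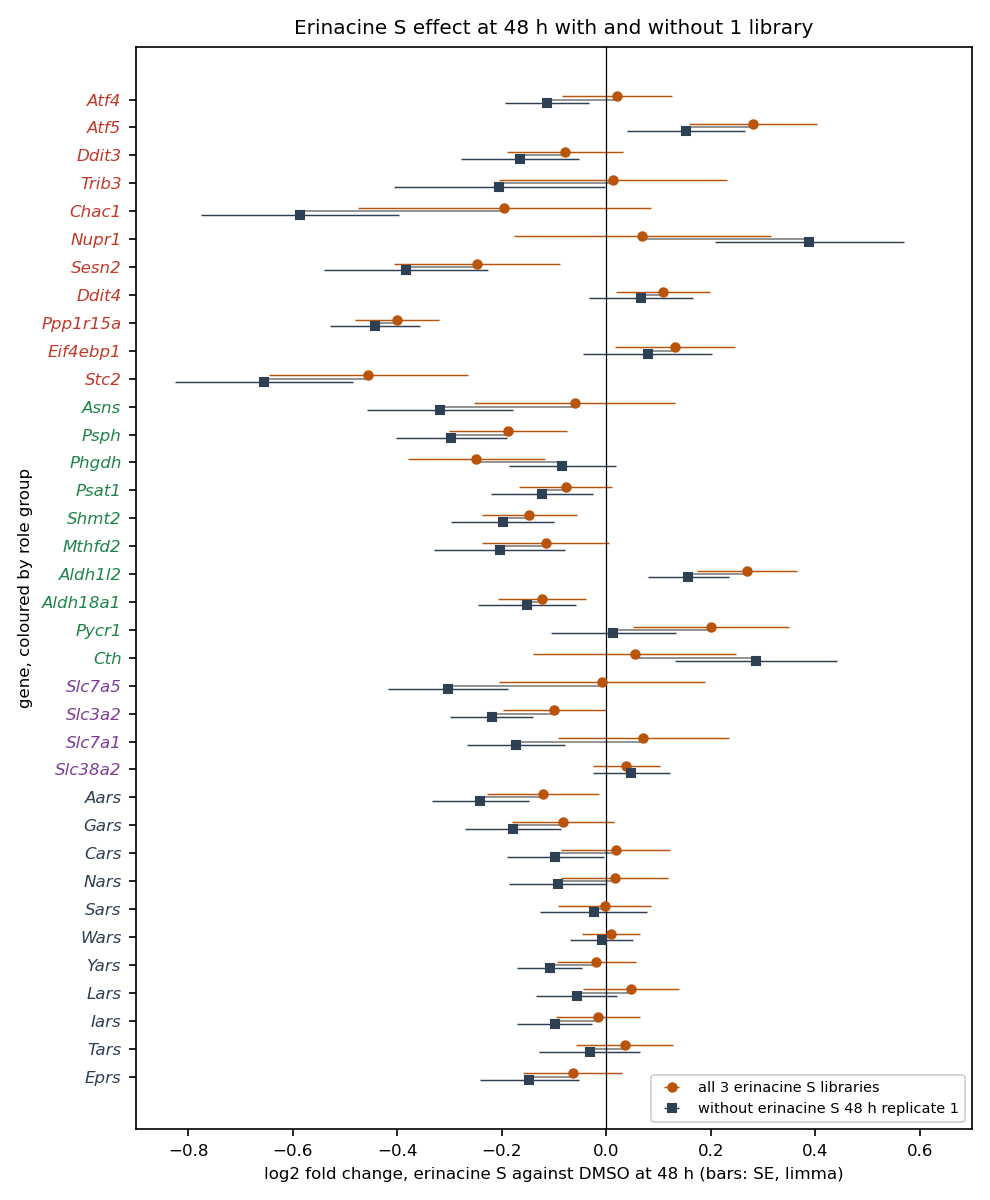
Log2 fold change of erinacine S against DMSO at 48 h for each of the 36 genes with all 3 treated libraries (circles) and without replicate 1 (squares), with SE bars from limma. Leaving out replicate 1 shifts most genes to the left, from a median of -0.012 to one of -0.12, and Ppp1r15a lies left of 0 in both.

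The comparison over time with erinacine S also moved with that library. It lay below all 6 libraries of 16 h for 22 of the 36 genes, beside 32.6% of all genes, within their range for 11 and above them for 3, Ddit4, Slc7a1 and Wars. By role it was below them for 9 of 11 regulators, 8 of 10 enzymes, 2 of 4 transporters and 3 of 11 synthetases. Without it, 30 of the 36 genes fell, beside 13.4% of all genes, with a median of -0.65: 10 of 11 regulators, 9 of 10 enzymes, 3 of 4 transporters and 8 of 11 synthetases. The 6 that did not pass were Ddit4, Cth, Slc38a2, Gars, Sars and Wars.

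Genes around the set, on 8 lists drawn up from the same pathways, moved in different directions between 16 h and 48 h in DMSO. Of 18 eIF2alpha kinases and translation factors, 5 fell and 2 rose (median -0.078). Eif2ak3 (PERK), the kinase that senses misfolded protein in the endoplasmic reticulum, fell by 0.56 ± 0.07 (adjusted p = 0.000187, limma), while Dnajc3, an inhibitor of such kinases, rose by 0.51 ± 0.077 (adjusted p = 0.000611). Of 25 other genes tied to ATF4, 12 fell and 2 rose (median -0.38). Vegfa, a growth factor for vessels that ATF4 can induce, fell by 1.08 ± 0.086, and Cebpg, a dimer partner of ATF4, by 0.90 ± 0.089 (adjusted p = 1.29e-05 and 4.64e-05, limma). The 2 that rose were Got1, an aspartate aminotransferase, by 0.52, and Ndrg1, a stress-induced gene of myelinating cells, by 0.56.

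Amino acid enzymes and synthetases outside the set had medians nearer 0, and apart from the cytosolic synthetases their shares of falling genes were near those of all genes, 16.6% lower and 16.1% higher. Of 21 further serine, one-carbon and related enzymes, 3 fell and 2 rose (median -0.054), among them Oat, ornithine aminotransferase, which rose by 0.79 ± 0.11, and Mthfd2l, the relative of Mthfd2, which fell by 0.79 ± 0.12. Of 12 other cytosolic synthetases and their scaffold genes, 6 fell and 0 rose (median -0.17), with Mars at -0.45 ± 0.10 and Dars at -0.24 ± 0.059. Of 20 genes for mitochondrial synthetases and for amidotransferase subunits (Gatb, Gatc and Qrsl1), 3 fell and 0 rose (median -0.14). Fars2 was at -0.58 ± 0.097 and Rars2 at -0.38 ± 0.11. Of 6 mitochondrial stress chaperones and proteases, 1 fell, Hspa9, by 0.26.

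The other branches of the unfolded protein response went the opposite way. Of 16 of their genes, 12 rose and 1 fell (median 0.35). Hspa5 (BiP), the main chaperone of the endoplasmic reticulum, rose by 0.67 ± 0.098 (adjusted p = 0.000501, limma) and Hyou1, its nucleotide exchange factor, by 0.59 ± 0.091 (adjusted p = 0.000661). The gene that fell was Ern1 (IRE1), a sensor of the same stress, by 0.38. With erinacine S, 4 of the 16 rose and 0 fell (median 0.20), beside 15.1% and 15.5% of all genes. Values of this list without erinacine S 48 h replicate 1 are not given. The interaction passed for 0 of the 16 by limma, beside 0 (0%) of all genes tested. At an unadjusted p under 0.05 it held 3 of the 16, beside 2.77% of all genes. Of 10 genes of mTORC1 and amino acid sensing, 2 rose and 1 fell: the GTPase gene Rragd by 0.67 and Sesn3 by 0.67 upward, and Sesn1 by 0.44 downward, so that of the sestrins Sesn1 and Sesn2 fell and Sesn3 rose.

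**Figure D5:**
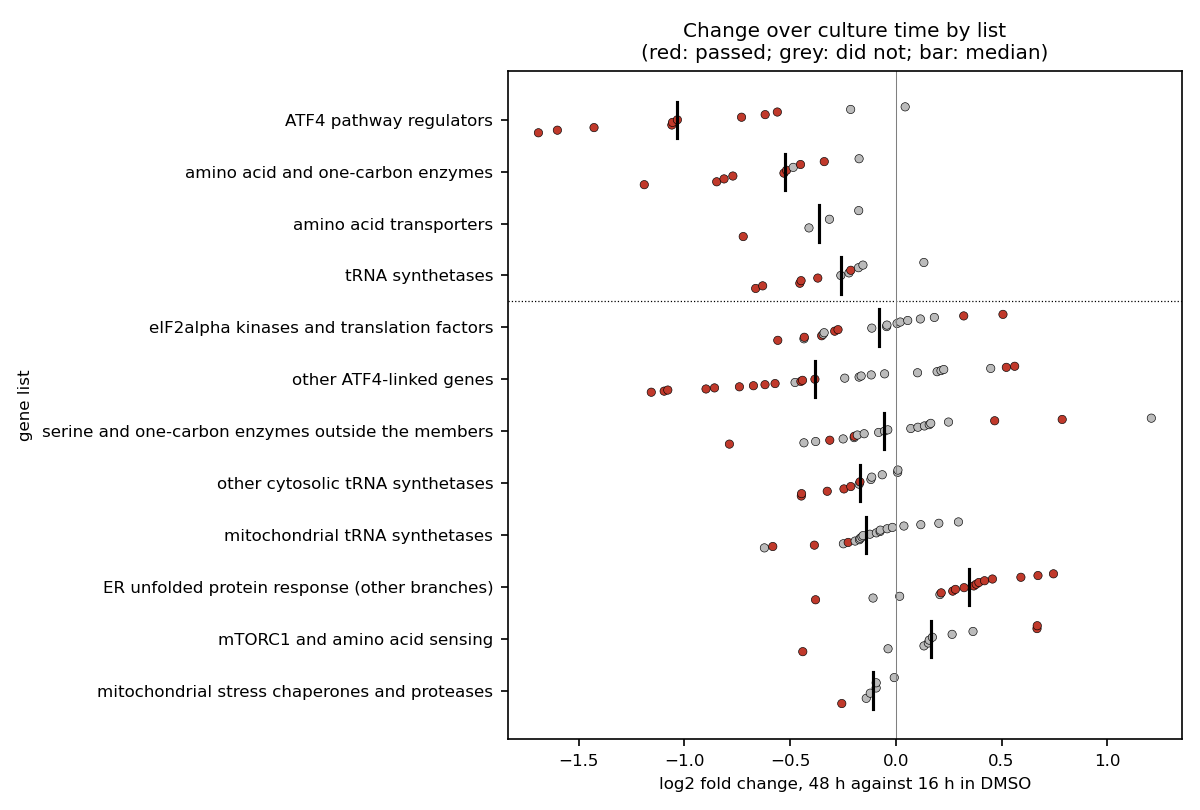
Log2 fold change of 48 h against 16 h in DMSO for the genes of the 4 role groups (above the dotted line) and of the 8 surrounding lists; red points passed limma's test at an adjusted p under 0.05, grey points did not, and the bar is the list median. The regulators have the lowest median, -1.03, and the other branches of the unfolded protein response the highest, 0.35.

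Between erinacine S and DMSO at 16 h, 0 of the 128 genes on the 8 lists passed by limma. The 16 genes of the other unfolded protein response branches leaned upward, with a median of 0.24 beside 0.0077 over all genes, and 2 of them were below 0, beside 46.3% of all genes. At an unadjusted p under 0.05 there were 9 of the 16, beside 1.29% of all genes, and all 3 treated libraries lay above all 3 controls for 7, beside 2.62%. At 48 h 1 of the 128 passed, Atf3, a stress-induced transcription factor downstream of ATF4, at -0.91 ± 0.15 (adjusted p = 0.0413, limma). Whether this call held without erinacine S 48 h replicate 1 or another library is not reported here.

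By level, Atf4 was the most abundant of the set at a mean of 364 TPM over the 12 libraries (261 to 483), followed by Gars at 273 TPM (235 to 315), Slc3a2 at 232 TPM (148 to 318), Nars at 229 TPM and Sars at 206 TPM. The ranges of these neighbours overlapped. The median over the members of a role was 35.4 TPM for the regulators, 57.7 TPM for the enzymes, 129 TPM for the transporters and 120 TPM for the synthetases. The lowest levels were those of Stc2 at 9.22 TPM, Trib3 at 7.12 TPM, Nupr1 at 6.72 TPM and Cth at 1.75 TPM, and for these the log2(TPM + 1) scale shrinks a fold most. In means of TPM, Nupr1 was 4.13-fold and Trib3 3.64-fold higher at 16 h than at 48 h in DMSO.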

How the data were processed

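RNA of primary mouse cortical neurons was sequenced in 12 libraries made with a strand-specific kit. Per the submitters' processing notes, StringTie 2.1.3, HISAT2, SAMtools, Trimmomatic 0.36, FastQC and bcl2fastq 2.20 were used with GRCm38.p5. Not given in the sources used here are filters, the strand setting and the annotation release. TPM were deposited by the authors for 51912 genes (0.0001 stands for 0), and coordinates are from that table. Groups and replicate numbers come from the sample titles.

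Tests used limma 3.58.1 (R 4.3.3) on log2(TPM + 1) (eBayes with a trend, a mean per group, 1 fit of all 12 libraries, two-sided, Benjamini-Hochberg over the 15623 genes with a mean of at least 1 TPM, threshold 0.05). All 36 members passed that filter. The fit was tested on simulated data. Members and lists were chosen with earlier results of these data known. Values in every library are given for Atf4, Ddit3, Trib3, Chac1, Asns and the 3 members of each role with the smallest p, and up to 2 genes per surrounding list are named. Other genes given by library or by name were chosen after their values were seen. Members that overlap another gene of at least 1 TPM number 9.

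Replicate pairs correlated at 0.980 to 0.995 across genes. At 16 h, libraries with the same number deviated together from the means of their groups (r = 0.480, 0.185 and 0.510 across genes), so the numbers pair those libraries. At 48 h r was -0.022, 0.107 and -0.192, and the numbers do not pair them. Alternatives were other pseudocounts (0.1 and 5), filters, scalings, replicate blocks, robust eBayes, fits of only the libraries compared and leaving out each library.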

Additional observations from a re-analysis of the deposited data

How the results depend on the processing

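The counts of genes of the set that passed kept within 1.5 times of those reported under the alternatives run, except for erinacine S against DMSO at 48 h, where leaving out erinacine S 48 h replicate 1 gave 1 gene (Ppp1r15a) and the other alternatives gave 0. The ranges were 21 to 28 genes falling over time in DMSO, 19 to 30 with erinacine S, and 0 for erinacine S at 16 h and for the interaction. Of the genes that fell, 21 of 24 in DMSO and 19 of 22 with erinacine S passed under every alternative run. Psat1, Nars and Yars in DMSO and Psat1, Aars and Lars with erinacine S did not, and none of these changed sign. Over all genes, the 21 called for erinacine S at 48 h became 114 without erinacine S 48 h replicate 1, 9 to 13 without another library, 12 with only the libraries compared and 13 with a replicate block over all groups. With the replicate block over all groups, 23 and 22 genes of the set fell over time in DMSO and with erinacine S and 0 passed for either treatment comparison. The block within each time gave 0 for the treatment comparisons and the interaction, and it was not run for the comparisons over time because its blocks are nested in time. Leaving out 1 library at a time turned the sign of small treatment differences, whose values ranged from -0.15 to 0.097 for Trib3, from -0.065 to 0.032 for Atf4, from -0.11 to 0.044 for Ddit3, from -0.24 to 0.015 for Asns at 16 h and from -0.11 to 0.10 for Atf4, from -0.21 to 0.18 for Trib3, from -0.17 to 0.017 for Ddit3, from -0.32 to 0.078 for Asns, from -0.59 to 0.033 for Chac1 at 48 h. TPM hold no depth, so counting error could not be separated from the spread between libraries.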

Other observations

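The 16 h libraries differed by replicate number on this set more than on genes at large. Replicate 1 was the lowest of its group in both DMSO and erinacine S for 18 of the 36 genes, beside 13.2% of all genes tested, and for 10 of the 11 tRNA synthetases. In DMSO at 16 h replicate 1 was the lowest for 29 of the 36 genes, beside 21.4% of all genes, and with erinacine S for 20 of the 36, beside 41.9%. The median difference of the 36 genes from the DMSO 16 h mean was -0.13 in DMSO replicate 1 and -0.15 in erinacine S replicate 1, beside 0.023 and 0.011 over all genes, a gap larger than the median difference between treatments at 16 h. The labels give no date or batch for these numbers.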
